A study of Mus musculus with 18 samples.

Results

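The comparison described here is that of wild-type mouse livers 12 hours after myocardial infarction (MI) with livers 12 hours after a sham operation, with 3 samples in each group. These were 6 of the 18 samples of the series. All 6 were RNA-seq libraries of whole liver from C57BL/6 mice aged 12 postnatal weeks and labelled wild type, with no transgene, Cre or deletion in either group. Per the study's methods the mice were male, the infarct came from closing a coronary artery of the left heart for good, and in sham mice that artery stayed untied. The series' design text, and not the sample labels, gives the time of 12 hours. The labels number the samples within each group, and nothing in them ties an MI liver to a sham liver.

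The liver answers a distant injury by an acute phase response. Interleukin-6 (IL-6) binds its receptor on hepatocytes, the Janus kinases (JAK) phosphorylate the transcription factor STAT3, and STAT3 together with C/EBP and NF-kB factors drives plasma proteins such as fibrinogen and serum amyloid A. SOCS proteins shut the signal off. The secretory load is met by the unfolded protein response, and adrenal glucocorticoids act on many of the same genes. In this study the 12 hour livers were sequenced to ask which upstream signal reaches the mineralocorticoid receptor (MR, encoded by Nr3c2) and the hepatokine FGF21 in the liver. Both axes were followed below with the rest of the transcriptome.

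The MI and sham libraries differed in depth and in composition before any gene was compared. The MI libraries held 16745688 to 19190438 estimated counts and the sham libraries 1361564 to 2255837. Between 12264 and 12328 genes had at least 10 counts in an MI library, and 9255 to 10509 in a sham library. A count of 3 in a library was taken as a floor near which levels are uncertain, and smaller counts entered the fits as they were. This floor corresponded to 0.204 to 0.211 CPM (counts scaled by library total and TMM factor) in MI and to 1.04 to 1.77 CPM in sham. One gene, Gm20594, took 1.79% to 3.66% of the counts of the sham libraries and 0.0167% to 0.0659% of those of the MI libraries. Genes with a mean under 0.1 CPM in 6 livers of the 1 day experiment (titled W and labelled wild type, 3 MI and 3 sham) took 3.03% to 5.42% of the sham counts and 0.139% to 0.260% of the MI counts. Across the 12379 genes tested that could be matched to the 1 day livers, the rank correlation with their mean level there was 0.889 to 0.903 for the MI libraries and 0.674 to 0.744 for the sham libraries, which is given as a description. Per the study's methods the controls of its hepatocyte MR knockout are littermates with a floxed MR gene and no Cre, so the W livers may carry that allele. The 1 day table was made and scaled separately, and its levels are set beside those at 12 hours only to show which genes such livers express. Albumin, a defining hepatocyte marker, was high in both groups, at 43602, 47988 and 68787 CPM in MI and 12662, 13675 and 14548 CPM in sham. Depth and composition follow the groups, so their part in any difference below cannot be told apart from that of MI.

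**Figure D1:**
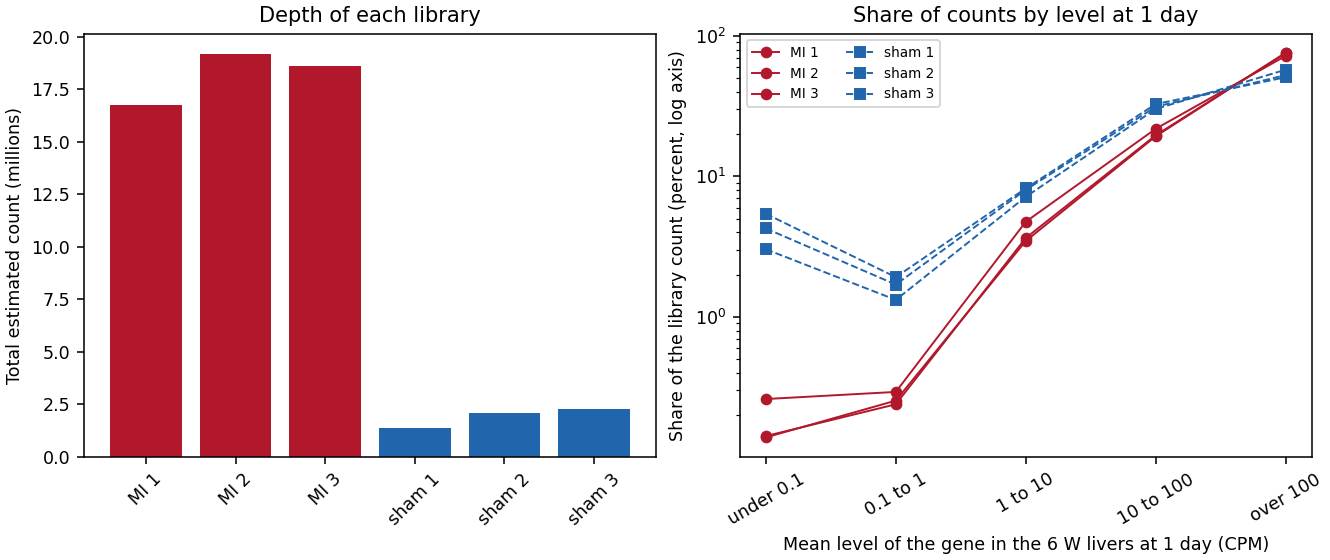
Left, bars give the total estimated count of each of the 6 libraries (MI red, sham blue). Right, points give the share of each library's counts, in percent on a log axis, in genes binned by their mean CPM in the 6 W livers at 1 day. Genes under 0.1 CPM at 1 day take 3.03% to 5.42% of the sham counts and at most 0.260% of the MI counts.

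Of the 12548 genes tested, 3196 (25.5%) were called higher and 3356 (26.7%) lower in MI, where a call needs an adjusted p under 0.05 together with a log2 fold change beyond 1 in either direction. At any fold change 4299 genes (34.3%) passed higher and 4013 (32%) lower. The 3 MI values lay above all 3 sham values for 37.8% of the genes and below all 3 for 34%, and the median log2 fold change of all genes was 0.11. These shares are the background against which each gene list below has to be read. Of the calls, 48.8% were higher with TMM scaling of the libraries, but 22.6% with the library totals as the only scaling, which moved the median of all genes by -0.65 to -0.54 on the log2 scale. On the deposited TPM, which scale counts by gene length and library, 18.7% of 11711 genes passed higher and 42.5% lower. Fold changes below are with TMM scaling, hence relative to the bulk of the genes, and a rise smaller than that shift turns into a fall with library totals only. With every library thinned to the total of the shallowest one, 2514 genes were called higher and 3250 lower.

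Genes hardly expressed in the 1 day livers made up a large share of the lower calls. Of 256 tested genes with at most 0.01 CPM in the W livers at 1 day, 233 (91.0%) were called lower at 12 hours and 6 higher. Of 1068 genes over 100 CPM there, 122 (11.4%) were called lower and 458 (42.9%) higher. Of all lower calls that could be matched, 30.4% were genes under 1 CPM at 1 day, against 2.09% of the higher calls. Restricting the test to the 11052 genes at 1 CPM or more in the 1 day livers, an alternative chosen after seeing the data, gave 2510 higher and 2661 lower calls. The fold change also followed gene length, with a median of 0.40 in the shortest eighth of the genes and -0.49 in the longest. With an offset for length, likewise added after seeing the data, these medians were 0.11 and 0.09, and 3180 and 3303 genes were called.

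**Figure D2:**
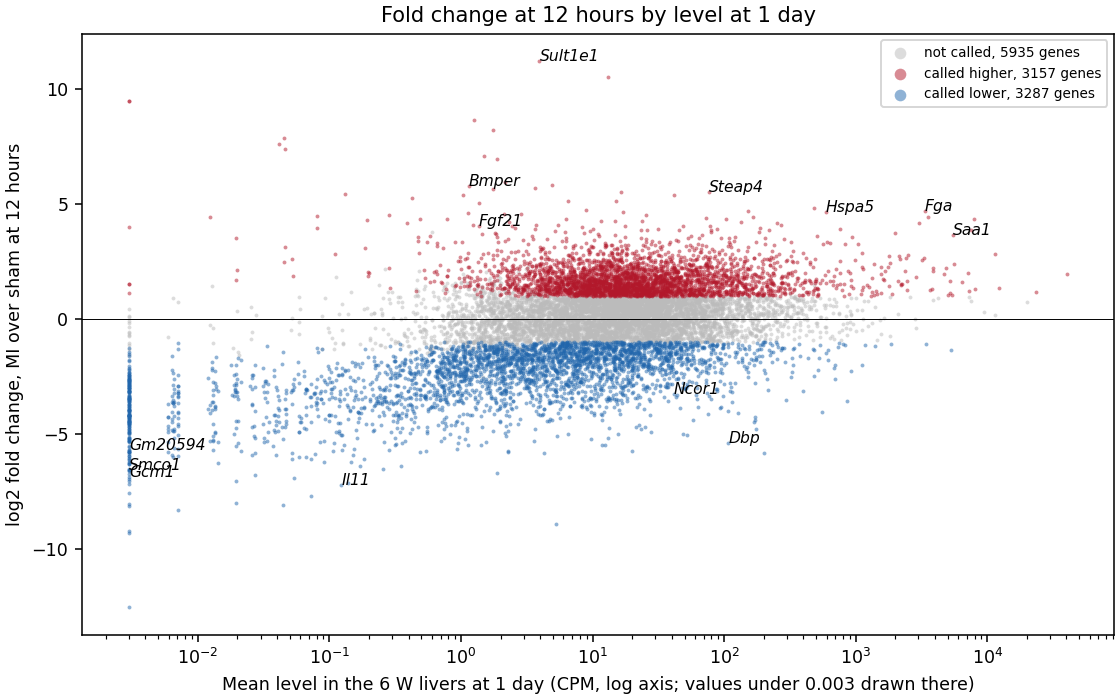
Each point is a gene tested at 12 hours, with its mean CPM in the 6 W livers at 1 day on the log x axis and its log2 fold change, MI over sham at 12 hours, on the y axis. Genes called lower crowd the left edge, where 233 of 256 genes at or under 0.01 CPM were called lower, and named genes such as Fga, Hspa5 and Dbp lie among the genes that the 1 day livers express.

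The acute phase plasma proteins, which hepatocytes secrete to limit infection, bleeding and iron loss, rose as a group. Of 51 members tested 41 rose and 2 fell, and the median log2 fold change was 1.61. Their share of 80.4% higher stood beside 34.3% of all genes, and with library totals only 27 rose and 3 fell against 16.9% and 44.8% of all genes. Hepatocyte markers moved as much, with 16 of 20 higher (80%) and a median of 1.65. With library totals only the medians were 0.97 for the acute phase list and 1.00 for these markers. The rise was thus not particular to the acute phase list. The 2 acute phase members that fell were Serpina6 (-1.80 ± 0.23, adjusted p = 6.4e-05) and Serpina3g (-0.73 ± 0.29, adjusted p = 0.044). Serpina3g no longer passed without sham replicate 2 (-0.36), without sham replicate 3 or without either of MI replicates 1 and 3.

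The 3 fibrinogen chains, which thrombin turns into the clot, rose together. Fga stood at 18185, 54730.2 and 45887 CPM in the 3 MI livers and at 1181, 2003 and 1465 CPM in the 3 sham livers (log2 fold change 4.68 ± 0.50 (SE), adjusted p = 2.2e-05). The lowest MI value was 9.08 times the highest sham value. Fgb rose with it (4.36 ± 0.43, adjusted p = 1.4e-05), and so did Fgg (4.42 ± 0.47, adjusted p = 2.1e-05). For all 3 chains MI replicate 1 was the lowest of the MI livers and still far above sham.

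Lcn2, a siderophore-binding protein that withholds iron from bacteria, stood at 9750.0, 18959 and 12354 CPM in MI and 614, 659 and 969.7 CPM in sham. The lowest MI value was 10.1 times the highest sham value (log2 fold change 4.19 ± 0.38 (SE), adjusted p = 9.8e-06). Serum amyloid P (Apcs), a pentraxin that is the major acute phase reactant of the mouse, was at 887, 1674 and 1069 CPM against 75.4, 99.3 and 125 CPM (log2 fold change 3.60 ± 0.33 (SE), adjusted p = 9.8e-06). Steap4, a metalloreductase, varied within MI from 274 CPM in replicate 1 to 1589 CPM in replicate 2, but all 3 sham livers held 16.2 to 20.8 CPM (log2 fold change 5.53 ± 0.60 (SE), adjusted p = 2.5e-05, and 4.67 without MI replicate 2). The serum amyloid A genes Saa1 (3.67 ± 0.40, adjusted p = 2.5e-05) and Saa2 (3.85 ± 0.42, adjusted p = 2.6e-05) are near-identical copies between which reads can be split, so their separate levels are uncertain.

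The TPM were deposited together with the estimated counts of the same libraries and are given here as another scaling. On that scale the mean of Fga was 13309.9 in MI and 791 in sham, and 27 of 50 members passed higher and 2 lower.

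The abundant carriers rose less. Haptoglobin (Hp), which binds free haemoglobin, stood at 20565, 35989 and 23562 CPM in MI and 10442, 11114 and 13788 CPM in sham, with no overlap (log2 fold change 1.18 ± 0.34 (SE), adjusted p = 0.0098). Hemopexin (Hpx), which binds haem, had 11766, 29235 and 16474 CPM against 6950.0, 7769.8 and 8004 CPM (log2 fold change 1.34 ± 0.37 (SE), adjusted p = 0.0085), and with library totals only neither passed. Among the 8 negative acute phase proteins, whose levels classically fall in inflammation, 5 rose and 1 (Serpina6) fell. Albumin was among those that rose (log2 fold change 1.97 ± 0.34 (SE), adjusted p = 0.00052). Orm2, an orosomucoid, was at 518, 1039.9 and 536 CPM and 229, 601 and 646 CPM, groups that overlapped (log2 fold change 0.50 ± 0.40 (SE), adjusted p = 0.29).

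The promoters of several of these genes hold the palindrome that STAT factors bind, TTCNNNGAA. It was searched on both strands in the 250 bases before the start of each gene in the RefSeq promoter table (GRCm38.p6). Of 38 acute phase members with a promoter there, 9 (23.7%) held it, beside 8.13% of 27025 genes and 7.02% of 32851 promoters. Of the members that rose, 30 had a promoter and 7 (23.3%) held it, so its share was alike with and without regard to the rise. Among all genes with a promoter it was held by 7.62% of those called higher and 7.03% of those called lower. Among the 41 members that rose, it was found in Apcs, Fga, Fgb, Hamp, Hamp2, Itih4 and Steap4. The hepcidin genes Hamp and Hamp2 are near-identical and lost their calls without MI replicate 1 (0.95 without MI replicate 1, adjusted p = 0.11, and 0.77 without MI replicate 1, adjusted p = 0.087) and without sham replicate 2 (1.34 without sham replicate 2, adjusted p = 0.053, and 0.75 without sham replicate 2, adjusted p = 0.11). The promoters of the 4 with the smallest p are shown 5′ to 3′ on the gene's strand, ending at the base before the start, with the palindrome in capitals. Apcs is from chr1:172895055-172895304 (minus strand), Fgb from chr3:83049864-83050113 (minus strand), Fga from chr3:83025903-83026152 (plus strand) and Steap4 from chr5:7960222-7960471 (plus strand).
Apcs: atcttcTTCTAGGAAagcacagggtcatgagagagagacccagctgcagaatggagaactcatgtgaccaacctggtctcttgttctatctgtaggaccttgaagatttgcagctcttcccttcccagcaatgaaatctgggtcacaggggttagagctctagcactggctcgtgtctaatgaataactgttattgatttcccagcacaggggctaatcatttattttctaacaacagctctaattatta
Fgb: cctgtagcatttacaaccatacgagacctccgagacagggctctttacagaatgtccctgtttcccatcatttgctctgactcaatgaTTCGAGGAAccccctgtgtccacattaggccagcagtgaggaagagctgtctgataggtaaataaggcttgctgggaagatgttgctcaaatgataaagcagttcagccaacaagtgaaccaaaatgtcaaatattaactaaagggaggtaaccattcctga
Fga: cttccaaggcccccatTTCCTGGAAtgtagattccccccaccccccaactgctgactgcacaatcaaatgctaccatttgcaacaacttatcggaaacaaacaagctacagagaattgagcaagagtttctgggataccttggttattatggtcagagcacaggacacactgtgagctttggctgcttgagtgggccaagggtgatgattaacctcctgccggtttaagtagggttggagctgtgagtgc
Steap4: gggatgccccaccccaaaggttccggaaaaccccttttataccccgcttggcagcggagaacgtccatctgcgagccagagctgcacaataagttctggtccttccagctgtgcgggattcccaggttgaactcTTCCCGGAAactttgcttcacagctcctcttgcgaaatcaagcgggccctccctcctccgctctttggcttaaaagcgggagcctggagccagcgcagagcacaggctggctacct
A match describes these letters only and does not show that a factor binds there. Of the 16 members of the IL-6 chain that rose, 12 had a promoter in the table and 1, Socs3, held the palindrome.

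The IL-6/JAK/STAT3 chain itself moved in both directions, as did the genes tested at large. Of its 40 members tested 16 rose (40%) and 9 fell (22.5%), beside 34.3% and 32% of all genes. The median log2 fold change of the chain was 0.44, and -0.21 with library totals only. With totals 12 rose and 16 fell, when 16.9% of all genes passed higher and 44.8% lower. Feedback inhibitors and transcription factors held 10 of the 16 rises, and receptors and kinases split.

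Among the cytokines Il6 was close to absent, with 0, 0.138 and 0 CPM in MI and 0 in all 3 sham livers, and was below the filter. Amounts under the floor of 3 counts over the whole sham group (0.421 CPM) could have been missed. Clcf1 and Ctf1, ligands of the same receptor family, rose (1.80 ± 0.38, adjusted p = 0.0018 for Clcf1). Ctf1 had 108 counts over the MI group and 2 over the sham group, a ratio of the group levels of 8.85 (95% interval 2.39 to 74.0) for counting error (adjusted p = 0.0037 in edgeR), and of 5.27 (1.42 to 44.0) without sham replicate 3. With libraries thinned to the shallowest, neither passed (1.06, adjusted p = 0.12 for Clcf1 and 0.37, adjusted p = 0.86 for Ctf1). Il11 went the other way, with 3.65, 0.276 and 0.817 CPM in MI and 296, 246 and 177 CPM in sham (log2 fold change -7.23 ± 0.67 (SE), adjusted p = 1.1e-05, and -8.73 without MI replicate 1). Its mean in the 6 W livers at 1 day was 0.123 CPM, below every liver at 12 hours of either group.

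Of the receptors, Il6ra, which gives hepatocytes their IL-6 binding, was measured at 25.6, 30.1 and 23.4 CPM in MI and 107, 129.7 and 64.3 CPM in sham. No MI liver reached the lowest sham value, and Il6ra fell (log2 fold change -1.92 ± 0.26 (SE), adjusted p = 0.00010). The shared signal transducer Il6st (gp130) was at 76.5, 75.6 and 74.1 CPM and 53.03, 102 and 69.8 CPM (log2 fold change 0.00 ± 0.24 (SE), adjusted p = 0.99), and it passed as lower with library totals only (-0.64, adjusted p = 0.040). Osmr, the oncostatin M receptor, rose from 2.95, 7.91 and 7.64 CPM in sham to 23.2, 32.4 and 29.4 CPM in MI (log2 fold change 2.13 ± 0.31 (SE), adjusted p = 0.00016). Lifr (0.09 ± 0.23, adjusted p = 0.74) and Il10rb (-0.53 ± 0.25, adjusted p = 0.081) did not pass, and Il11ra1 fell (-0.69 ± 0.19, adjusted p = 0.0076). Il22ra1 passed narrowly (1.34 ± 0.54, adjusted p = 0.048), with MI replicate 2 above the other MI livers. It did not pass when any one of the sham livers was left out (1.23 without sham replicate 2, adjusted p = 0.13).

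Stat3 stood at 198, 294 and 224 CPM in MI and 67.8, 88.2 and 79.2 CPM in sham, with a clear gap between the groups (log2 fold change 1.60 ± 0.23 (SE), adjusted p = 0.00015). Its mean TPM was 58.3 in MI and 29.7 in sham. It also passed with library totals only (0.95, adjusted p = 0.0035). Of the other kinases and STATs, Jak1 rose (0.61 ± 0.19, adjusted p = 0.016), a change within the range that turns with the scaling (-0.05 with library totals only). Jak2 (-1.27 ± 0.24, adjusted p = 0.00092), Jak3 (-0.60 ± 0.23, adjusted p = 0.042), Stat2 (-0.68 ± 0.24, adjusted p = 0.028) and Stat5a (-1.29 ± 0.26, adjusted p = 0.0013) fell. Of these, the falls of Jak2 and Stat5a did not depend on any 1 library. Jak1 (0.49 without MI replicate 2, adjusted p = 0.082), Jak3 (-0.32 without sham replicate 2, adjusted p = 0.29) and Stat2 (-0.59 without sham replicate 2, adjusted p = 0.11) lost their calls when single libraries were left out. Tyk2 (0.42 ± 0.22, adjusted p = 0.12), Stat5b (-0.45 ± 0.19, adjusted p = 0.054) and Stat6 (-0.23 ± 0.19, adjusted p = 0.30) did not pass. Stat5b did when MI replicate 1 was left out (-0.55, adjusted p = 0.023). Stat5b and Stat6 were lower with library totals only (-1.09, adjusted p = 0.00098 and -0.88, adjusted p = 0.0026). Stat4 was below the filter.

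Socs3, the STAT3 target that blocks gp130 signalling, was at 222, 183 and 149 CPM in MI and 17.7, 27.7 and 42.4 CPM in sham. The lowest MI value was 3.51 times the highest sham value (log2 fold change 2.63 ± 0.31 (SE), adjusted p = 4.0e-05). Socs1 was low and uneven, with 1.68, 13.5 and 3.27 CPM in MI and at most 0.589 CPM, or 2 counts in all, in sham. Its ratio of group levels was 21.9 (95% interval 6.00 to 182) for counting error (adjusted p = 0.0096 in edgeR), and 13.02 (3.57 to 108) without sham replicate 3. Cish (1.84 ± 0.33, adjusted p = 0.00066) and Socs6 (1.22 ± 0.26, adjusted p = 0.0019) rose and Socs7 fell (-0.99 ± 0.24, adjusted p = 0.0041). Socs2 (0.02 ± 0.27, adjusted p = 0.94) and Socs5 (0.81 ± 0.51, adjusted p = 0.18) did not pass, although Socs5 did when sham replicate 2 was left out (1.88, adjusted p = 0.015). The phosphatases Ptpn2 (1.41 ± 0.23, adjusted p = 0.00030) and Ptpn11 (1.05 ± 0.19, adjusted p = 0.00068) rose. Of the 12 inhibitors tested 6 rose, and 4 with library totals only.

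Of the transcription factor genes downstream of STAT3, 4 rose: Cebpb (1.62 ± 0.21, adjusted p = 8.4e-05), Cebpd (2.20 ± 0.25, adjusted p = 3.3e-05), Bcl3 (2.20 ± 0.23, adjusted p = 2.1e-05) and Junb (2.53 ± 0.23, adjusted p = 1.0e-05). Junb, an AP-1 subunit, had 147, 127 and 136 CPM in MI and 25.3, 17.0 and 28.8 CPM in sham. Bcl6, a repressor that STAT5 and STAT3 regulate, fell from 38.9, 67.2 and 69.5 CPM in sham to 11.5, 8.97 and 17.6 CPM in MI (log2 fold change -2.21 ± 0.30 (SE), adjusted p = 0.00010).

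**Figure D3:**
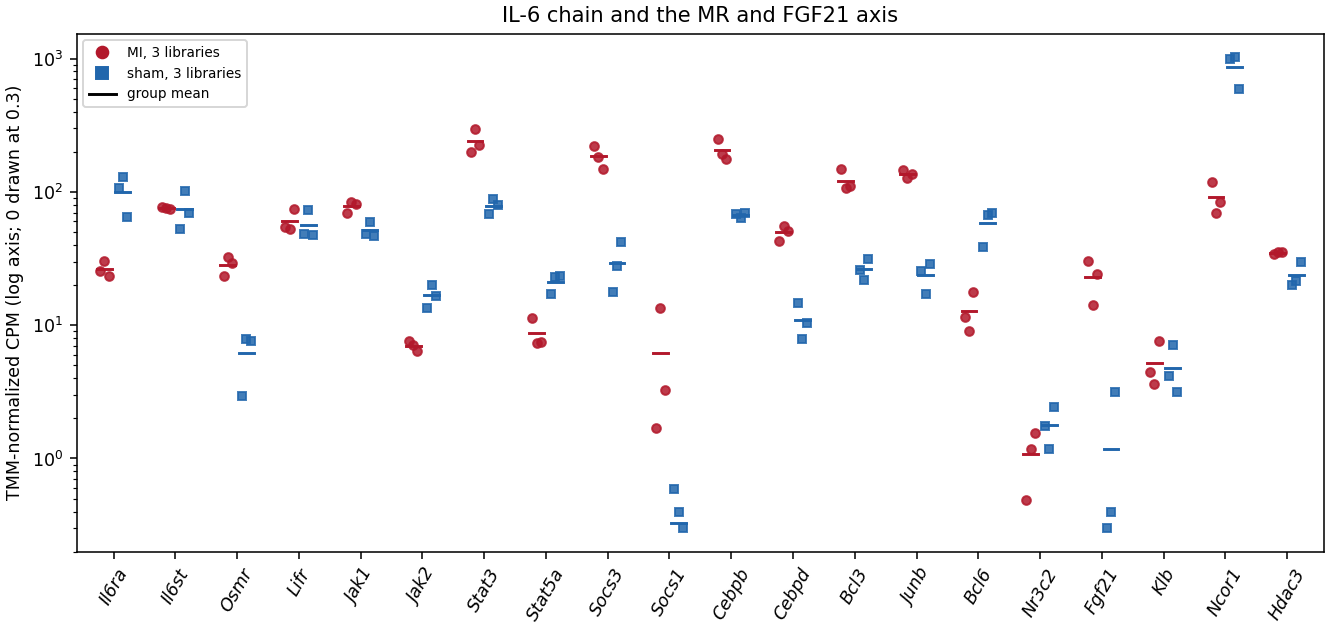
TMM-normalized CPM on a log axis for genes of the IL-6 chain and of the MR and FGF21 axis, with 3 MI livers in red circles, 3 sham livers in blue squares and the group mean as a bar. Stat3, Socs3, Cebpb, Cebpd, Bcl3, Junb and Fgf21 separate upward in MI, Il6ra, Jak2, Stat5a, Bcl6 and Ncor1 downward, and Il6st, Lifr, Nr3c2 and Klb overlap.

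On the MR and FGF21 axis MR itself was too low to compare, Fgf21 rose and Ncor1 fell. Nr3c2 was at 0.491, 1.17 and 1.57 CPM in MI and 1.77, 1.19 and 2.43 CPM in sham, amounts that in the sham libraries lie near the 3 count floor. The groups overlapped (log2 fold change -0.74 ± 0.58 (SE), adjusted p = 0.28), and a difference of this size was not detectable at this depth. The W livers at 1 day, MI and sham pooled and scaled separately, held a mean of 4.199 CPM. Fgf21 was at 30.5, 14.2 and 24.2 CPM in MI and 0, 0.395 and 3.13 CPM in sham. Every MI liver stood above every sham liver (log2 fold change 4.05 ± 0.61 (SE), adjusted p = 0.00020, and 6.57 without sham replicate 3), although the sham livers held at most 9 counts and the value without sham replicate 3 rests on 1 sham count. Its mean TPM was 27.7 in MI and 2.20 in sham. Its mean in the W livers at 1 day, which pools 3 MI and 3 sham livers on a separate scaling, was 1.36 CPM. That mean is neither an MI nor a sham level.

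Ncor1, the corepressor that recruits HDAC3, had the largest difference on this axis after Fgf21. It stood at 119, 69.8 and 83.7 CPM in MI and 988, 1026 and 594 CPM in sham (log2 fold change -3.26 ± 0.31 (SE), adjusted p = 1.3e-05). The mean in the W livers at 1 day was 41.6 CPM, below every liver of either group at 12 hours. Gps2, another subunit of the complex, fell as well (-1.67 ± 0.25, adjusted p = 0.00020). Hdac3 passed upward by 0.55 ± 0.21 (adjusted p = 0.034), which was -0.10 with library totals only. It no longer passed without MI replicate 3 (0.47, adjusted p = 0.13), MI replicate 2, sham replicate 1 or sham replicate 2. Of the corticosteroid genes, the glucocorticoid receptor Nr3c1 fell (-0.61 ± 0.17, adjusted p = 0.0079, but -0.20, adjusted p = 0.30 with the length offset). Hsd11b1, which regenerates active glucocorticoid, rose (1.04 ± 0.21, adjusted p = 0.0013), but it did not pass as higher with library totals only or on TPM. Serpina6, the corticosteroid-binding globulin, fell (-1.80 ± 0.23, adjusted p = 6.4e-05). The FGF21 co-receptor Klb did not pass (0.12 ± 0.43, adjusted p = 0.82) and Fgfr3 fell (-1.53 ± 0.24, adjusted p = 0.00029).

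Bmper, a BMP-binding secreted protein, was at 26.5, 59.1 and 32.5 CPM in MI and at most 1.18 CPM in sham (log2 fold change 5.77 ± 0.52 (SE), adjusted p = 9.4e-06), and it was among the 15 largest rises. The nuclear receptor Nr1d1 fell (-1.86 ± 0.38, adjusted p = 0.0015, and -2.46 without MI replicate 1). Nr1d2 rose (0.89 ± 0.20, adjusted p = 0.0029), though not with library totals only (0.24, adjusted p = 0.35). Of the peroxisome proliferator-activated receptors, Ppara (0.03 ± 0.23, adjusted p = 0.90) and Pparg (0.57 ± 0.30, adjusted p = 0.12) did not pass.

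Glucocorticoid-responsive genes rose in 17 of 23 members tested, with a median log2 fold change of 2.10. Klf9 and Arrdc2 fell. Tat, the tyrosine aminotransferase that is a classical hormone target in liver, stood at 3043, 4302 and 3561 CPM in MI and 209.8, 262 and 261 CPM in sham. The lowest MI value was 11.6 times the highest sham value (log2 fold change 3.89 ± 0.29 (SE), adjusted p = 4.5e-06). Fkbp5, the receptor's co-chaperone, had 107, 189 and 154 CPM against 15.3, 18.6 and 14.6 CPM (log2 fold change 3.21 ± 0.27 (SE), adjusted p = 6.8e-06). Cdkn1a, which encodes the cell cycle inhibitor p21, was at 176, 253 and 204 CPM and 15.9, 3.16 and 14.2 CPM (log2 fold change 4.27 ± 0.44 (SE), adjusted p = 1.8e-05). Errfi1, an inhibitor of EGF receptor signalling, rose too (2.17 ± 0.24, adjusted p = 2.6e-05). With library totals only 16 of the 23 still rose.

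The unfolded protein response had the highest median of all lists examined. Of 33 members tested 30 rose, and Ddit3, Atf3 and Canx did not pass (Canx did when MI replicate 1 was left out, 0.85, adjusted p = 0.0041). The list had a median log2 fold change of 2.90 beside 0.11 for all genes. With library totals only 28 rose and the median was 2.24, and on TPM 27 of 33 rose.

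The endoplasmic reticulum chaperones led the list. Hyou1 was at 406, 638 and 812 CPM in MI and 20.03, 20.6 and 29.9 CPM in sham, and the lowest MI value was 13.6 times the highest sham value (log2 fold change 4.71 ± 0.34 (SE), adjusted p = 4.3e-06). Hspa5 (BiP), the master chaperone of the compartment, rose (4.64 ± 0.42, adjusted p = 9.7e-06) from 100.2, 113 and 125 CPM in sham to 1337, 3008 and 4099 CPM in MI. Sdf2l1 (4.40 ± 0.31, adjusted p = 4.3e-06), the secreted factor Manf (4.45 ± 0.38, adjusted p = 7.6e-06), the disulphide isomerase Pdia3 (3.32 ± 0.29, adjusted p = 8.2e-06) and the translocon subunit Sec61b (2.90 ± 0.22, adjusted p = 4.8e-06) rose with them. Derl3, of the degradation machinery, was at 114, 234 and 275 CPM against 0.589, 5.54 and 7.30 CPM (log2 fold change 5.41 ± 0.52 (SE), adjusted p = 1.3e-05). Of the factors, Xbp1 had 661, 856 and 837 CPM in MI and 60.1, 86.6 and 100.1 CPM in sham (log2 fold change 3.25 ± 0.27 (SE), adjusted p = 6.8e-06). Ddit3 (CHOP), the death-promoting factor of the same pathway, was at 33.6, 18.7 and 23.3 CPM and 17.7, 34.4 and 20.2 CPM, with overlapping groups (log2 fold change 0.05 ± 0.30 (SE), adjusted p = 0.88). MI replicate 1 was the lowest MI liver for Hyou1, Hspa5, Sdf2l1 and Manf.

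The ER stress response element, CCAAT and CCACG 9 bases apart, is a site that ATF6 and XBP1 can bind. On both strands of the 250 bases before the start, 9 of the 28 list members with a promoter held it (32.1%), beside 0.130% of 27025 genes. So did 18 of the 10017 tested genes with a promoter (0.180%), among them 13 of the 2572 called higher and 2 of the 2618 called lower. The 13 include the 8 list members that rose, which are named below. The STAT-type palindrome was counted separately, whether or not it overlapped this element, and 1 of the 28 held it. The list members that rose and held the ER stress response element were Calr, Creld2, Derl3, Dnajc3, Hsp90b1, Hspa5, Pdia6 and Syvn1. The promoters of the 3 with the smallest p are given with the element in capitals, from chr2:34771840-34772089 (plus strand) for Hspa5, chr19:6046326-6046575 (plus strand) for Syvn1 and chr12:17266339-17266588 (plus strand) for Pdia6.
Hspa5: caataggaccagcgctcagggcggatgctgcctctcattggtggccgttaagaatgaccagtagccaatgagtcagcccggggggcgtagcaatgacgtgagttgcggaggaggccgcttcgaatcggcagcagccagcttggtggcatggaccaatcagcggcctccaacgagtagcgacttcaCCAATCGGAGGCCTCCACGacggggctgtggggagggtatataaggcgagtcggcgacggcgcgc
Syvn1: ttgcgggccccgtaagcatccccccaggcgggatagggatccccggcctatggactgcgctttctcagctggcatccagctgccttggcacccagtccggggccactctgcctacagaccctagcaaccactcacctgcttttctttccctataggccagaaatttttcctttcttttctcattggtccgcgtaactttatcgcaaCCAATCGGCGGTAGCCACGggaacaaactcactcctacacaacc
Pdia6: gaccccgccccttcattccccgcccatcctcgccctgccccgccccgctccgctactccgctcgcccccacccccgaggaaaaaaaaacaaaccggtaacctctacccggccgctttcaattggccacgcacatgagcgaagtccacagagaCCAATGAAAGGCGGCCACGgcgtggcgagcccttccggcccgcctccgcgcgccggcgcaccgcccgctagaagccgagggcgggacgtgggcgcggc
In all 3 the element lies on the gene's strand as written, and in Hspa5 it ends 46 bases before the start. Here too a match does not show that a factor binds, and binding was not tested.

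**Figure D4:**
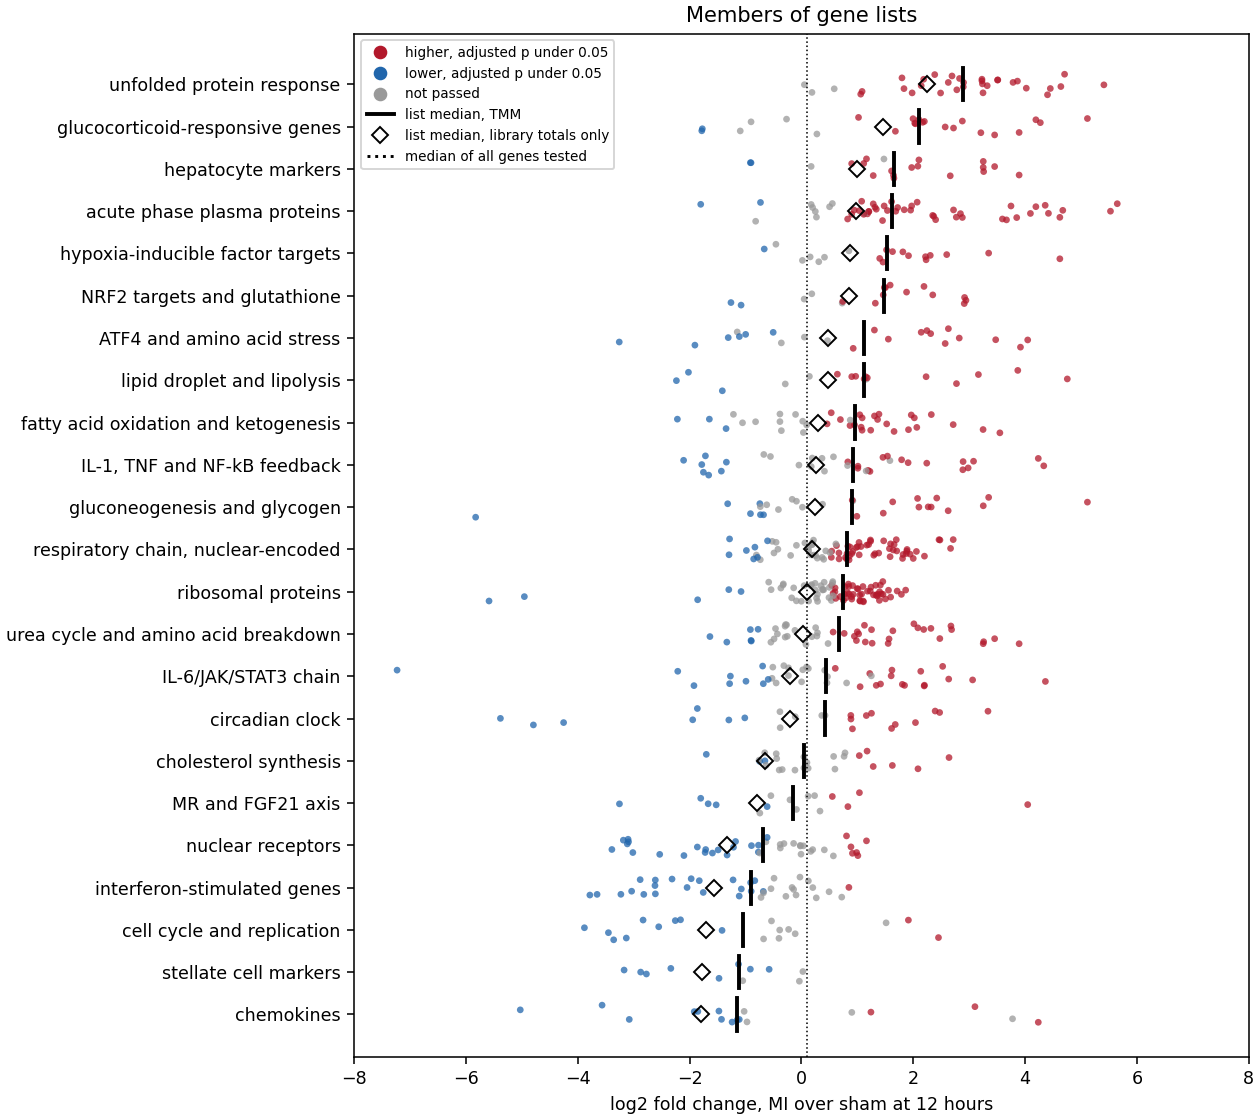
Each point is a member of a gene list, placed by its log2 fold change (MI over sham) and coloured by whether it passed at an adjusted p under 0.05. Black bars are list medians with TMM scaling, open diamonds the medians with library totals only, and the dotted line the median of all genes tested (0.11). The unfolded protein response lies furthest to the right (2.90), the chemokines furthest to the left (-1.15), and the diamonds of the IL-6 chain and the clock list fall left of 0. With library totals only the median of all genes, which is not drawn, was -0.54.

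Genes of the interleukin-1, TNF and NF-kB pathway rose in 16 and fell in 7 of 34 members tested, and 7 of the 9 receptors rose. These counts were 8 and 8 of 34, and 4 of 9, with library totals only. Il1r1, the signalling interleukin-1 receptor, was at 742, 887 and 864 CPM in MI and 23.0, 47.5 and 51.8 CPM in sham. The lowest MI value was 14.3 times the highest sham value (log2 fold change 4.34 ± 0.33 (SE), adjusted p = 5.0e-06). Both TNF receptors rose, Tnfrsf1a (2.89 ± 0.26, adjusted p = 8.7e-06) and Tnfrsf1b (2.24 ± 0.28, adjusted p = 6.0e-05). Nfkbia, the inhibitor that NF-kB itself induces, fell from 169, 168 and 153 CPM in sham to 51.2, 50.4 and 53.4 CPM in MI (log2 fold change -1.66 ± 0.18 (SE), adjusted p = 2.9e-05). So did the subunit Nfkb2 (-1.75 ± 0.22, adjusted p = 6.6e-05). Tnf was below the filter.

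Chemokines fell in 10 and rose in 3 of 17 members tested, but 6 fell when any one MI liver was left out. Cxcl1, a neutrophil attractant made by hepatocytes, rose from 10.02, 9.89 and 17.7 CPM in sham to 169.8, 272 and 281 CPM in MI (log2 fold change 4.24 ± 0.32 (SE), adjusted p = 5.0e-06), with Cxcl12 (1.24 ± 0.25, adjusted p = 0.0014, but 0.58, adjusted p = 0.063 with library totals only) and Cxcl14 (3.10 ± 0.72, adjusted p = 0.0031). Ccl27a fell the most (-5.03 ± 0.24, adjusted p = 2.5e-06), from 86.6, 66.4 and 77.1 CPM to 2.81, 1.79 and 2.38 CPM. Ppbp, a platelet chemokine, and Ccl9 fell (-3.57 ± 0.51, adjusted p = 0.00015 and -1.15 ± 0.25, adjusted p = 0.0020). The platelet markers Itga2b (-2.93 ± 0.29, adjusted p = 1.5e-05), Gp9 (-4.54 ± 0.80, adjusted p = 0.00057) and Pf4 (-1.92 ± 0.54, adjusted p = 0.0094, -1.72 without sham replicate 2, adjusted p = 0.056) were lower in MI beside Ppbp, and their part in the chemokine values was not tested.

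Interferon-stimulated genes, which block viral replication, fell in 21 of 36 members tested and 1, Bst2, rose (0.85 ± 0.26, adjusted p = 0.014, but 0.74 without sham replicate 2, adjusted p = 0.057), with a median log2 fold change of -0.90. With library totals only 27 fell. Irf7, the factor that amplifies the interferon response, was at 20.2, 17.3 and 18.4 CPM in MI and 118, 121 and 105 CPM in sham. The groups were separate (log2 fold change -2.62 ± 0.19 (SE), adjusted p = 4.3e-06), and the W livers at 1 day had a mean of 42.9 CPM between them. Ifit1 (-3.79 ± 0.34, adjusted p = 9.4e-06), Xaf1 (-2.82 ± 0.22, adjusted p = 5.7e-06), Gbp7 (-3.04 ± 0.28, adjusted p = 9.8e-06), Oas3 (-2.89 ± 0.40, adjusted p = 0.00012) and Oas1a (-2.61 ± 0.36, adjusted p = 0.00012) were lower in each MI liver than in each sham liver. Within the genes at 1 CPM or more at 1 day, 20 of 35 members fell.

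Hypoxia-inducible factor targets rose in 12 of 19 members tested and Ndrg1 fell (-0.67 ± 0.23, adjusted p = 0.023, but -0.57 without sham replicate 3, adjusted p = 0.094, and likewise not past the threshold without sham replicate 1), with a median log2 fold change of 1.52. Ldha, lactate dehydrogenase A, was at 1279.9, 2147 and 1741 CPM in MI and 123, 159.8 and 224 CPM in sham (log2 fold change 3.35 ± 0.32 (SE), adjusted p = 1.3e-05). Bnip3 (1.92 ± 0.23, adjusted p = 4.9e-05), Pgk1 (2.30 ± 0.32, adjusted p = 0.00011), Eno1 (1.52 ± 0.23, adjusted p = 0.00023) and Hif1a itself (2.22 ± 0.33, adjusted p = 0.00018) rose as well.

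Antioxidant genes of the NRF2 and glutathione list rose in 12 and fell in 2 of 17 members (1 fell without MI replicate 3 or sham replicate 3). The rises were led by thioredoxin reductase Txnrd1 (2.35 ± 0.22, adjusted p = 1.2e-05) and sulfiredoxin Srxn1 (2.19 ± 0.23, adjusted p = 1.8e-05). Haem oxygenase Hmox1 stood at 23.9, 59.4 and 78.0 CPM against 9.43, 4.35 and 7.64 CPM (log2 fold change 2.94 ± 0.46 (SE), adjusted p = 0.00025). Genes of the ATF4 and amino acid stress list rose in 12 and fell in 6 of 22. Asns, asparagine synthetase, was at 51.8, 66.7 and 38.6 CPM in MI and 2.36, 1.19 and 6.25 CPM in sham (log2 fold change 3.92 ± 0.43 (SE), adjusted p = 2.6e-05, and 5.004 without sham replicate 3), and Chac1, which degrades glutathione, rose (3.48 ± 0.34, adjusted p = 1.4e-05). The amino acid transporter chain Slc3a2 fell (-1.91 ± 0.28, adjusted p = 0.00020).

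In glucose metabolism Pck1, G6pc and Slc37a4, which make and release glucose, rose. G6pc, which releases glucose, rose from 27.7, 35.2 and 59.1 CPM in sham to 463, 259 and 451 CPM in MI (log2 fold change 3.25 ± 0.34 (SE), adjusted p = 2.2e-05). Pck1, of gluconeogenesis, rose (2.10 ± 0.26, adjusted p = 5.6e-05), and so did the glucose-6-phosphate transporter Slc37a4 (2.32 ± 0.28, adjusted p = 5.4e-05). Igfbp1, a secreted IGF-binding protein that insulin represses, was at 84.5, 361 and 265 CPM in MI and 2.36, 9.49 and 7.64 CPM in sham (log2 fold change 5.12 ± 0.58 (SE), adjusted p = 3.5e-05). Pklr, a glycolytic enzyme, rose too (2.62 ± 0.28, adjusted p = 2.3e-05). Over the 27 members tested 13 rose and 6 fell (3 fell without sham replicate 3, and 10 rose and 9 fell with library totals only), which is 48.1% and 22.2% beside 34.3% and 32% of all genes.

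Lipid droplet genes rose in 11 and fell in 3 of 17 members, but 5 rose with library totals only and on TPM. The droplet coat Plin5 was at 76.9, 64.5 and 77.8 CPM in MI and 5.30, 8.30 and 10.1 CPM in sham, and the groups did not overlap (log2 fold change 3.17 ± 0.25 (SE), adjusted p = 5.1e-06). Cidec, which enlarges droplets, rose from 2.95, 0.395 and 3.47 CPM to 96.6, 32.8 and 54.3 CPM (log2 fold change 4.76 ± 0.56 (SE), adjusted p = 4.4e-05, and 5.44 without sham replicate 3), while the lipases Lipe (-2.02 ± 0.25, adjusted p = 5.7e-05) and Lpl (-2.24 ± 0.32, adjusted p = 0.00014) fell. Fatty acid oxidation and ketogenesis genes rose in 23 and fell in 3 of 37 (5 without MI replicate 1), but with library totals only in 11 and 9. Cpt1a, which carries fatty acids into mitochondria, had 309.9, 342 and 379 CPM in MI and 52.4, 84.6 and 125 CPM in sham (log2 fold change 1.96 ± 0.30 (SE), adjusted p = 0.00023). Pdk4, like Cpt1a a target of the receptor PPAR-alpha, fell (-1.35 ± 0.43, adjusted p = 0.017), a call that was lost without sham replicate 1 (-0.88 without sham replicate 1, adjusted p = 0.11). In lipid synthesis Scd1 (2.26 ± 0.31, adjusted p = 0.00011), Me1 (2.26 ± 0.24, adjusted p = 2.5e-05) and the SREBP anchor Insig2 (3.54 ± 0.28, adjusted p = 5.1e-06) rose. Srebf1 (-1.32 ± 0.23, adjusted p = 0.00050) and Pnpla3 (-4.19 ± 0.34, adjusted p = 6.0e-06) fell, and Fasn did not pass (0.37 ± 0.27, adjusted p = 0.25), except with the length offset (1.25, adjusted p = 0.0027). Cholesterol synthesis genes rose in 6 and fell in 3 of 25 (2 and 7 with library totals only), below the share of all genes in both directions. The falls rested on which MI livers were compared. Without MI replicate 2, 16 of the 25 fell, and without any other single liver at most 1 fell. The summed level of the list was 877, 3457 and 1359 CPM in MI and 1903, 1770.0 and 1812 CPM in sham. MI replicate 2 thus lay above all sham livers and the other MI livers lay below all of them.

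The urea cycle, which detoxifies ammonia from amino acids, rose in 7 of its 8 genes. Arg1, arginase, was at 3307, 2771 and 2949.5 CPM in MI and 357, 284 and 302 CPM in sham (log2 fold change 3.26 ± 0.26 (SE), adjusted p = 5.7e-06), and the ornithine carrier Slc25a15 rose (2.19 ± 0.25, adjusted p = 3.6e-05). With library totals only 4 of the 8 rose. Bile acid genes split, 6 rising and 7 falling of 26 (3 and 10 with library totals only). The bile salt export pump Abcb11 fell from 238, 238 and 223 CPM in sham to 60.8, 20.2 and 39.1 CPM in MI (log2 fold change -2.54 ± 0.35 (SE), adjusted p = 0.00011), with the sterol exporters Abcg5 (-2.23 ± 0.29, adjusted p = 8.7e-05) and Abcg8 (-1.63 ± 0.20, adjusted p = 6.1e-05) and the rate-limiting enzyme Cyp7a1 (-2.32 ± 0.42, adjusted p = 0.00071, and -3.18 without MI replicate 3), whereas Baat, which conjugates bile acids, rose (2.65 ± 0.26, adjusted p = 1.6e-05).

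Circadian clock genes rose in 11 and fell in 7 of 23 members, beside 34.3% and 32% of all genes. With library totals only 6 rose and 9 fell, when 16.9% of all genes passed higher and 44.8% lower. On TPM 7 rose and 9 fell, beside 18.7% and 42.5% of all genes. A difference between the roles of the clock genes was not tested. Of the 8 output genes 5 fell and 2 rose. Dbp, an output factor driven directly by the clock, was at 14.7, 2.76 and 5.04 CPM in MI and 239, 341 and 362 CPM in sham, and the lowest sham value was 16.2 times the highest MI value (log2 fold change -5.39 ± 0.55 (SE), adjusted p = 1.8e-05, and -6.33 without MI replicate 1). Usp2 (-4.80 ± 0.34, adjusted p = 4.3e-06), Upp2 (-4.26 ± 0.41, adjusted p = 1.3e-05) and Tef (-1.30 ± 0.26, adjusted p = 0.0014) fell as well. The core activator Arntl rose from 3.54, 1.19 and 2.78 CPM to 4.84, 9.39 and 8.03 CPM (log2 fold change 1.61 ± 0.44 (SE), adjusted p = 0.0082), though not with library totals only (0.95, adjusted p = 0.081). Clock passed only with the length offset (0.36 ± 0.21, adjusted p = 0.16, and 1.16, adjusted p = 0.00090 with it). Nfil3, which competes with Dbp for its sites, stood at 40.4, 72.8 and 58.7 CPM in MI and 6.48, 4.75 and 5.91 CPM in sham (log2 fold change 3.34 ± 0.29 (SE), adjusted p = 8.5e-06). Of the repressors, Per1 (2.04 ± 0.21, adjusted p = 2.0e-05) and Bhlhe40 (2.39 ± 0.21, adjusted p = 8.0e-06) rose, and Nr1d1 fell from 147, 141 and 137 CPM to 65.3, 17.8 and 33.7 CPM. MI replicate 1 held the highest Dbp, Nr1d1 and Usp2 values of the MI group.

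**Figure D5:**
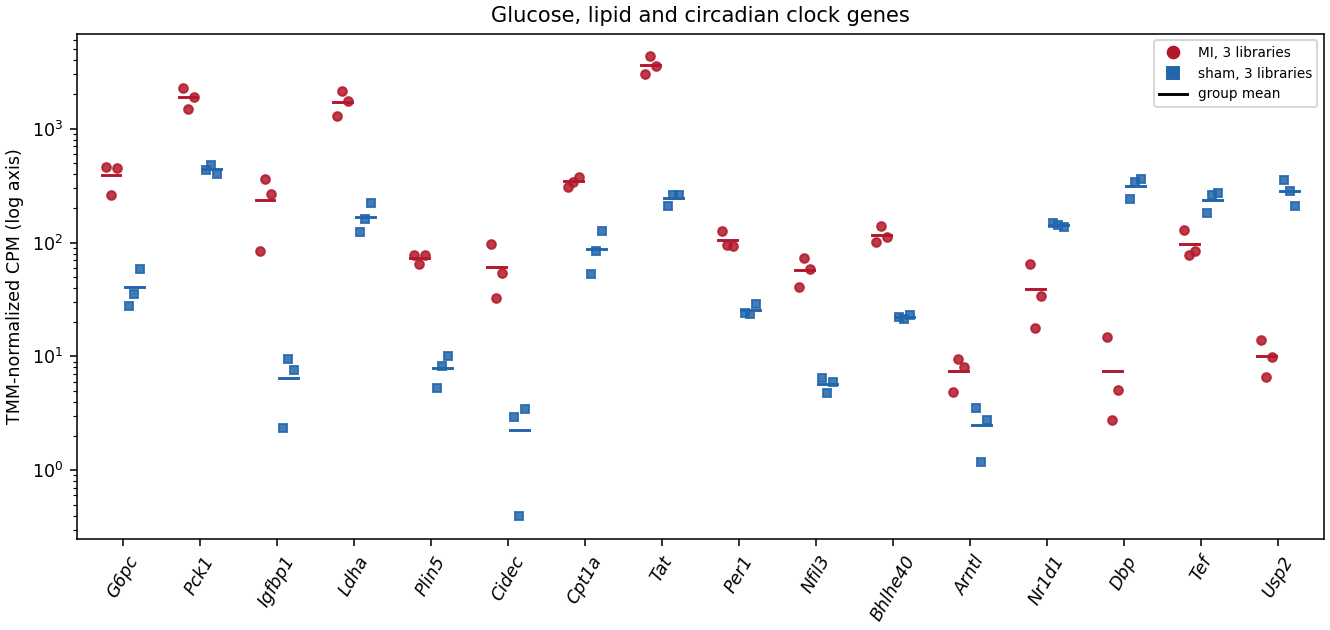
TMM-normalized CPM on a log axis for genes of glucose and lipid metabolism, glucocorticoid targets and the circadian clock, with MI livers in red circles, sham livers in blue squares and group means as bars. Nr1d1, Dbp, Tef and Usp2 are lower in each MI liver than in each sham liver, and the other genes shown are higher.

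Nuclear receptor genes fell in 20 and rose in 6 of 40 members, and with library totals only 23 fell and 0 rose. Nr2f2 (COUP-TFII), the fall with the smallest p, went from 143, 119 and 112 CPM in sham to 22.0, 19.4 and 22.8 CPM in MI (log2 fold change -2.54 ± 0.19 (SE), adjusted p = 5.0e-06). Thra, the thyroid hormone receptor alpha gene, fell (-3.02 ± 0.28, adjusted p = 1.1e-05). Nr2f1 (-3.12 ± 0.39, adjusted p = 5.9e-05), Esr2 (-3.19 ± 0.54, adjusted p = 0.00046) and Hnf4g (-3.10 ± 0.58, adjusted p = 0.00085) also fell but were under 0.5 CPM in the W livers at 1 day. Of the hepatocyte factors, Foxa2 (1.90 ± 0.23, adjusted p = 4.6e-05) and Prox1 (1.30 ± 0.20, adjusted p = 0.00021) rose and Onecut2 fell (-2.36 ± 0.31, adjusted p = 8.7e-05).

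Growth hormone, STAT5 and IGF1 genes rose in 15 and fell in 7 of 30, among them 10 rises in 15 male-biased genes (12, 10 and 7 with library totals only). Mup3, a major urinary protein gene, was at 8529.5, 7327 and 8777 CPM in MI and 1874, 2172 and 2077 CPM in sham (log2 fold change 2.01 ± 0.27 (SE), adjusted p = 9.3e-05). The Mup genes are near-identical and reads may be shared between them. Igfbp2 and Igfbp4 rose (1.5 ± 0.22, adjusted p = 0.00015 and 2.27 ± 0.25, adjusted p = 2.8e-05). Igf1 did not pass (0.25 ± 0.24, adjusted p = 0.37), except with the length offset (0.74, adjusted p = 0.016).

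Markers of other liver cells bear on how the groups compare. In bulk tissue fewer cells of a type and less RNA per cell cannot be told apart. Of 20 hepatocyte markers 16 rose and 2 fell (1 without sham replicate 2). Their summed level was 118343 to 152550 CPM in MI and 46456 to 50998 CPM in sham. Of 11 stellate cell markers tested 8 fell, with sums of 242 to 278 CPM in MI and 473 to 699 CPM in sham, Col3a1 being 4.14, 5.38 and 7.63 CPM against 64.2, 35.2 and 28.8 CPM (log2 fold change -2.88 ± 0.34 (SE), adjusted p = 4.4e-05). Of 18 macrophage and Kupffer cell markers 1 passed, Clec4f, which fell (-2.25 ± 0.28, adjusted p = 5.4e-05). Leaving out MI replicate 2 made this 5 falls, and leaving out MI replicate 1 added 3 rises. With library totals only 7 of the 18 fell, as did 7 of 17 on TPM, when 44.8% and 42.5% of all genes passed lower. The sums of these macrophage and Kupffer cell markers overlapped (150.3 to 423 CPM in MI, 245 to 467 CPM in sham). Of 16 sinusoidal endothelial markers 5 fell and 1 rose, and this share of 31.25% lower was near the 32% of all genes. With library totals only 8 fell and 0 rose, when 44.8% of all genes passed lower. Stab1 (-1.90 ± 0.24, adjusted p = 6.0e-05) and Rspo3 (-3.21 ± 0.21, adjusted p = 3.7e-06) were among the falls. Kdr was the rise (0.97 ± 0.35, adjusted p = 0.029, but 0.71 without MI replicate 3, adjusted p = 0.15).

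Neutrophil markers rose in 6 and fell in 2 of 11, though only 2 rose without MI replicate 2 and 3 without MI replicate 3. Lcn2, which hepatocytes also make, supplied most of their summed level. Of the defining granule and surface genes Ly6g had 1.90, 4.003 and 4.15 CPM in MI and 1 count in all in sham, in replicate 2. The ratio of its group levels was 23.9 (95% interval 4.23 to 952) for counting error (adjusted p = 0.0015 in edgeR). Retnlg had 4.84, 14.1 and 7.69 CPM in MI and 3 counts in sham, a ratio of 21.1 (7.16 to 103) that was 40.8 (7.27 to 1614) without sham replicate 2 (adjusted p = 0.00043 in edgeR with all libraries). S100a9 had 7.37, 24.6 and 9.80 CPM against 1.77, 5.14 and 3.13 CPM (log2 fold change 1.998 ± 0.55 (SE), adjusted p = 0.0078, and 1.24 without MI replicate 2). Cxcr2, the receptor for Cxcl1, went down, with 10.5, 8.01 and 6.94 CPM in MI and 96.0, 102 and 87.2 CPM in sham (log2 fold change -3.49 ± 0.22 (SE), adjusted p = 3.4e-06), and its mean at 1 day was 0.378 CPM. Exocrine pancreas genes were at or under 0.211 CPM in MI for Ctrb1, Cela2a, Pnlip and Cpa1 and highest in sham replicate 1, where Ctrb1 reached 46.0 CPM.

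The 15 largest rises among genes with separate groups and at least 10 CPM in the higher group were Sult1e1, Gm44805, Zfp967, Nutf2-ps2, H2-Q9, Acpp, Bmper, Mup13, Cd14, Steap4, E030018B13Rik, Rtn4rl2, Derl3, Serpina3c and Slc10a6. Sult1e1, which inactivates oestrogen, had 22.2, 59.5 and 25.3 CPM in MI and 0 in all sham livers. Against a floor of 3 counts over the sham group (0.421 CPM) this is at least 84.7-fold higher. Gm44805 was at least 51.5-fold higher, Zfp967 at least 25.2-fold and Nutf2-ps2 at least 24.9-fold, the latter pair being at 0 in the W livers at 1 day. H2-Q9 had 446 counts over the MI group and 1 over the sham group, a ratio of group levels of 73.1 (95% interval 13.1 to 2894) for counting error. Rtn4rl2 had 809 and 3 counts, a ratio of 44.2 (15.1 to 215). Cd14, the co-receptor for bacterial lipopolysaccharide, varied widely in MI, with 2.60, 82.9 and 22.6 CPM, and was at 0.589 to 0.791 CPM in sham (log2 fold change 5.65 ± 1.38 (SE), adjusted p = 0.0043). E030018B13Rik had 277, 245 and 155 CPM against 2.36, 3.16 and 8.34 CPM (log2 fold change 5.52 ± 0.42 (SE), adjusted p = 5.0e-06, and 6.36 without sham replicate 3). Acpp (5.84 ± 0.51, adjusted p = 8.2e-06), an acid phosphatase, and Slc10a6 (5.28 ± 0.87, adjusted p = 0.00038, and 4.36 without MI replicate 2), a steroid sulfate carrier, rose from under 1.2 CPM.

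The 15 largest falls included Gm10408, BC048644, Gm10651, Il11, Lrrc31, Klk14, Ctrb1, Gcm1, Rhox8, Ptgds, LOC108168691, 4930512M02Rik, Smco1 and Cela2a. Gm10408 was at 0 in all MI livers and at 119, 106 and 44.5 CPM in sham, which against 3 counts over the MI group (0.0690 CPM) is at least 1303-fold lower. Smco1, a coiled-coil membrane protein, had 5.19, 0.966 and 1.97 CPM in MI and 336, 254 and 186 CPM in sham (log2 fold change -6.57 ± 0.55 (SE), adjusted p = 6.6e-06, and -7.44 without MI replicate 1). Gcm1, a placental transcription factor, had 1.26, 0.414 and 0.477 CPM against 132, 87.4 and 44.5 CPM (log2 fold change -6.90 ± 0.51 (SE), adjusted p = 4.5e-06, and -7.56 without MI replicate 1). Of the 14 of these 15 with a level at 1 day, 12 had a mean under 0.3 CPM there and 7 were at 0, while Ptgds had 1.88 CPM and BC048644 5.26 CPM. Dbp, with the largest fall in the clock list, stood at 108 CPM there. Gm20594 fell with them (-5.71 ± 0.59, adjusted p = 2.0e-05, and -6.50 without MI replicate 1) and was also at 0 at 1 day. Its mean TPM was 124463 in sham and 1553 in MI, so that on the TPM scale the other genes of the sham libraries share a smaller remainder.

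The counts of the housekeeping lists moved with the scaling, as did those of all genes. Of 81 cytosolic ribosomal protein genes 47 rose and 5 fell, and with library totals only 17 rose and 12 fell. Nuclear-encoded respiratory chain subunits rose in 47 and fell in 7 of 78 (3 to 13 when single livers were left out, 13 without MI replicate 1), and with library totals only in 24 and 14. With totals 16.9% of all genes passed higher and 44.8% lower. The medians with totals were 0.10 for the ribosomal and 0.18 for the respiratory chain list, beside -0.54 for all genes. Atp5g3 (2.72 ± 0.20, adjusted p = 4.5e-06) and Ndufa4 (2.67 ± 0.22, adjusted p = 6.6e-06) of the respiratory chain passed either way. Ribosomal Rps23 stood at 363, 392 and 341 CPM in MI and 97.8, 99.6 and 104 CPM in sham (log2 fold change 1.86 ± 0.20 (SE), adjusted p = 2.6e-05). Proteasome subunits rose in 24 and fell in 7 of 38, the immunoproteasome subunit Psmb10 among the falls (-1.72 ± 0.20, adjusted p = 3.4e-05). Cell cycle genes fell in 9 and rose in 2 of 18, Birc5 (survivin) from 40.1, 30.8 and 28.5 CPM in sham to 3.16, 1.73 and 1.77 CPM in MI (log2 fold change -3.88 ± 0.30 (SE), adjusted p = 5.1e-06), with a mean of 1.98 CPM at 1 day.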

How the data were processed

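Whole livers of 3 MI and 3 sham mice were sequenced, per the labels from Trizol extracts with a TruSeq kit. The labels (frozen on dry ice) and the study's methods (RNAlater) differ on how the tissue was kept. The authors deposited one table of estimated counts, TPM and FPKM for each gene (17127 genes) and library. The submitters' processing notes list HISAT2 2.1.0, TopHat2, Bowtie2 2.2.3, the build mm9 and DESeq2, with no role for any of them. The counting program, annotation and strand setting are not given in those sources. Without strand, reads of overlapping genes cannot be told apart. The authors' raw counts of 6 livers at 1 day (titled W) served only as a reference of expression, as mean CPM per gene. Gene length was computed from the deposited estimated counts and FPKM.

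Estimated counts were rounded and tested with edgeR 4.0.16 (R 4.3.3): filterByExpr by group (minimum count of 10, minimum total of 15), TMM factors, the quasi-likelihood F test and Benjamini-Hochberg adjustment over the 12548 genes kept. The SE is the log2 fold change over the square root of F. CPM are TMM-normalized. TPM were tested with limma 3.58.1 on log2(TPM + 1) and log2(TPM + 0.1) for genes with a mean TPM of at least 1, which understates changes of low genes. DESeq2 1.42.0 was an alternative. The code was tested on simulated data. With 3 libraries a group, p-values measure the spread between these samples only, and floors and intervals cover counting error only. Where sham held 1 to 3 counts, the ratio of summed counts over effective library sizes is given with an exact (Clopper-Pearson) 95% interval. Sham values rest on far fewer counts than MI values.

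The replicate numbers did not pair the samples, since deviations of same-numbered MI and sham livers correlated at -0.060, 0.024 and -0.089. Members and gene lists were chosen with earlier results of these data known. Genes were named by rule: 12 genes of nuclear receptor, FGF21 and hepatokine signalling, the 15 largest rises and 15 largest falls with separate groups, the members of each list with the smallest p, and the IL-6 chain. Gm20594, Klb, Arntl, Tef, Hspa5, Saa1, Saa2, Ddit3, Nr3c1, Cyp7a1, Srebf1, Fasn, Pdk4, Clock, Canx and Atf3, and list members named for falling outside their list's direction, were added after their values were seen. A few genes that the rule names are not reported here. Alternatives were other scalings, filters, units, depths, thresholds and left-out libraries. A fit without Gm20594, a filter on the 1 day level and a length offset were chosen after seeing the data. Promoters are from RefSeq (GRCm38.p6), and 10017 of the 12548 genes matched. Mitochondrial genes were not analysed here.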

Additional observations from a re-analysis of the deposited data

How the results depend on the processing

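The 3196 higher and 3356 lower calls kept within 1.5 times with RLE factors, upper-quartile factors, DESeq2, no filter, thinned libraries, without Gm20594, with the 1 day filter and with the length offset. The higher calls numbered 1414 with library totals only, 1226 on TPM with a pseudocount of 1 and 1439 with 0.1, where the lower calls numbered 4849, 3815 and 4221. A mean count of at least 50 left 2010 higher and 2136 lower calls, of fewer genes tested. A log2 fold change beyond 2 left 925 and 1868, and glmTreat against a fold change of 1 (log2) 1784 and 2451. Leaving out 1 library gave 2558 to 3349 higher and 2921 to 3259 lower calls. With the replicate number as a block (replicate block) 3196 genes were called higher and 3317 lower, although the labels state no pairing, and not every library correlated best with its own number.

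Of the 231 genes followed, 209 passed. With library totals only or TPM, 20 lost their call in at least 1 of the 3 fits and 4 gained one, and 3 turned: Hdac3 to -0.10 with totals and to -0.035 and -0.036 on TPM, Jak1 to -0.047 with totals and to -0.036 and -0.038 on TPM, and Il6st to -0.64 with totals. These shifts are in the direction of the -0.65 by which library totals move the median of all genes. Leaving out 1 library cost 18 genes their call at least once and turned no direction of a call among them. With glmTreat, which tests against a log2 fold change of 1, 44 of the genes followed lost their call. The other 10 alternatives cost 23 genes their call in at least 1 fit. The 3 count floor of a single library, up to 1.77 CPM in sham against at most 0.211 CPM in MI, limits what can be said of low genes such as Nr3c2, Il6 and Socs1.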

Other observations

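Secreted plasma systems beyond the acute phase list also split by member. The counts in this section stand beside 34.3% of all genes higher and 32% lower. With library totals only these shares of all genes were 16.9% and 44.8%. Of 28 coagulation and fibrinolysis genes 13 rose and 6 fell, with a median log2 fold change of 0.58 beside 0.11 for all genes, and with library totals only 7 rose and 9 fell. Prothrombin (F2), plasminogen (Plg) and antithrombin (Serpinc1) were among the rises, and F10, F11, Klkb1 and protein C (Proc) among the falls. Of 31 complement genes 14 rose and 7 fell, which turned to 7 and 12 with library totals only, among the former C3 and the lectins Mbl1 and Mbl2 and among the latter C2, C4b and Hc. By the quasi-likelihood test of edgeR, F11 (adjusted p = 0.22) and Hc (0.063) did not pass without sham replicate 2, nor C3 (0.059) without MI replicate 2. F2, Serpinc1, C3 and Mbl1 did not pass with library totals only. Of 23 apolipoprotein and lipoprotein genes 9 rose and 6 fell (8 and 8 with library totals only).

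Of 38 phase II conjugation genes 22 rose and 5 fell, against 10 and 7 with library totals only. Cytochrome P450 genes of families 1 to 3 rose in 10 and fell in 6 of 37, which turned to 6 and 10 with library totals only and to 5 and 8 of 36 on TPM, Cyp2e1 and Cyp2f2 rising, and their near-identical copies can share reads. Heat shock and chaperone genes outside the endoplasmic reticulum rose in 8 and fell in 7 of 20 members (5 and 8 with library totals only), Hspd1, Hspe1 and Bag3 among the former and Hsp90aa1, Hsp90ab1 and Hspb1 among the latter. By the same edgeR test Cyp2f2 did not pass without MI replicate 3 (adjusted p = 0.14), sham replicate 1 (0.061) or sham replicate 3 (0.052), and Hspb1 without sham replicate 1 (0.086) or sham replicate 3 (0.0698). Cyp2f2 and Hspd1 did not pass with library totals only. Of 22 AP-1 and immediate early genes 8 rose and 3 fell, which turned to 5 and 7 with library totals only, and Fos, Jun and Myc did not pass. Of 18 p21 and p53 targets 8 rose and 4 fell, against 5 and 5 with library totals only. Ribosome biogenesis genes rose in 14 and fell in 5 of 24, and with library totals only in 2 and 6. Matrix genes fell in 8 and rose in 6 of 21 (12 and 1 with library totals only), Col1a1 and Col3a1 with the stellate cell markers that they also are. These counts have not been tested as sets.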
